A study of Mus musculus with 12 samples.

Results

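The comparison described here is that of low zinc alone: cells of the mouse line G1E-ER4 that received a control siRNA and the chelator DTPA (siControl plus DTPA) against cells that received the control siRNA and no chelator (siControl). The members are 5 of the 12 libraries of the study, 3 of siControl and 2 of siControl plus DTPA, and 11379 of 55487 listed genes, those whose TPM averaged 1 or more in the 11 libraries that entered the fit. TPM (transcripts per 1000000) gives every library the same sum, so that a value is a share. Another library labelled siControl plus DTPA was left out because all its values were those of siZIP10 replicate 1. G1E-ER4 cells are erythroid progenitors that lack the transcription factor GATA1 and carry a form of it that estradiol switches on. All cells were nucleofected with siRNA on 2 occasions 24 h apart, were given 100 nM β-estradiol at the second one, and were harvested 24 h later. DTPA was added at 25 µM from the start of differentiation. The 5 libraries therefore share the line, the siRNA procedure, the estradiol and the culture in erythropoietin and Kit ligand, and differ in DTPA. All came from 1 cell line, and the labels call the samples of a group biological replicates. RNA was poly(A) selected and sequenced with a stranded kit.

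DTPA (diethylenetriamine pentaacetic acid) is a chelator that stays largely outside cells and binds zinc tightly, and it also binds other metal ions. Zinc was not measured in these files and no group had zinc added back, so that low zinc below names the DTPA treatment, and a part of other metals in the results was not tested. As background, cells sense free zinc through MTF1, a transcription factor that switches on the metallothioneins and the exporter gene Slc30a1 when zinc is plentiful. ZIP proteins (Slc39 genes) carry zinc into the cytosol and ZnT proteins (Slc30 genes) carry it out. In maturing red cell precursors zinc is the structural ion of GATA1 and of many other zinc finger proteins, and the catalytic ion of carbonic anhydrases and of the heme enzyme ALAD.

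The libraries were of similar depth, with 19.5 to 24.0 M reads (1 M is 1000000) recovered from the TPM values of the 5, and 15265 to 15492 genes were above 0 in each. Of 11379 genes, 3272 (28.8%) passed the threshold of 0.05 on the adjusted p of limma's moderated test with Benjamini-Hochberg adjustment, and such genes are said below to be called, to rise or to fall. The called genes were 1136 that rose (9.98%) and 2136 that fell (18.8%), against 694 that rose without DTPA replicate 1 and 1305 that fell without DTPA replicate 2. That split depended on how libraries were scaled to each other, since 34.7% of the calls were rises on TPM as deposited, 46.8% with median-of-ratios scaling, 51.1% with quantile normalization and 48.3% with voom on recovered reads. These scalings moved the median of all genes by 0.03 to 0.05 on the log2 scale. Most changes were small: 81.3% of the called genes changed by less than 0.5 on the log2 scale, and the median size was 0.28. Changes are differences of mean log2(TPM + 1), which understates the change of genes with low TPM, and the signed number in parentheses after a gene or list is this difference, DTPA minus siControl, or its median over the list. A change of at least 1 on that scale was seen in 31 genes that rose (0.272%) and 78 that fell (0.685%). In all 3272 called genes the siControl libraries and the DTPA libraries did not overlap. By comparison, 20% of all tested genes were higher and 34.4% lower in both DTPA libraries than in every siControl library. Calls depended on level, taken as the mean over the libraries fitted. Of 2460 genes at 1 to 5 TPM 2.76% rose and 6.02% fell. Of 1628 genes at 100 to 1000 TPM 21.01% rose and 32.25% fell. Of 118 genes at 1000 TPM or more 45.8% rose and 14.4% fell. The shares of all genes given below were not matched for level. In RNA from whole cultures, fewer cells of a type and less RNA per cell cannot be told apart.

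**Figure D1:**
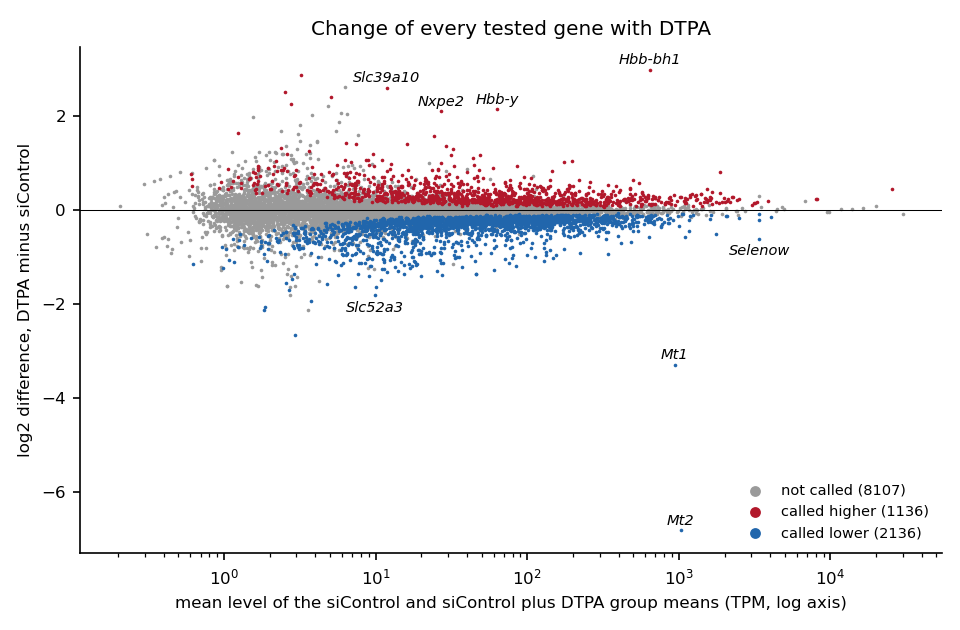
Each point is 1 of the 11379 tested genes, placed by the mean of its siControl and siControl plus DTPA group means (TPM, log axis) and by its log2 difference, DTPA minus siControl; red points were called higher (1136), blue points called lower (2136) and grey points were not called. Mt2 and Mt1 lie below all other genes, Hbb-bh1 and Slc39a10 lie near the top, and most called genes lie within 0.5 of 0.

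The strongest falls were those of the metallothioneins Mt1 and Mt2, small cysteine-rich proteins that bind zinc and copper. Mt2 had 1963, 2108 and 2046 TPM in the siControl libraries and 19.2 and 15 TPM in the DTPA pair. The groups lay far apart, with 0.837% of the mean control level left (−6.83, SE 0.12, adjusted p = 1.9e-10). Mt1 stood at 1627, 1804 and 1689 TPM in siControl and 170.1 and 175 TPM with DTPA, 10.1% of control (−3.30, SE 0.06, adjusted p = 1.9e-10). The genes are neighbours on chromosome 8 and fell unequally. Together they made up 0.375% of the TPM of siControl libraries and 0.019% of the DTPA libraries. Slc30a1, the zinc exporter of the plasma membrane that MTF1 also switches on, did not follow them: it stood at 85.9, 80.4 and 81.2 TPM in siControl and 92.5 and 87.6 TPM with DTPA, higher in both DTPA libraries without passing the threshold (0.13, adjusted p = 0.068). Mtf1 itself stood at 23, 21.7 and 21.2 TPM against 20.9 and 19 TPM and was not called (−0.13, adjusted p = 0.12). In 5 of 14 alternatives Slc30a1 was called higher (median-of-ratios scaling, quantile normalization, voom, the replicate block and without siControl replicate 1; adjusted p of 0.00068 to 0.042, and of 0.055 to 0.35 in the other 9).

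The bases just before the starts of Mt1 and Mt2 are shown because MTF1 is known to act on these genes through metal response elements there. Capitals mark matches to the core of the element, TGCACNC or TGCGCNC, on either strand. Each run is the 250 bases before the start of the gene in RefSeq, build GRCm38.p6: chr8:94178839-94179088, plus strand, for Mt1, and chr8:94172368-94172617, plus strand, for Mt2.
Mt1: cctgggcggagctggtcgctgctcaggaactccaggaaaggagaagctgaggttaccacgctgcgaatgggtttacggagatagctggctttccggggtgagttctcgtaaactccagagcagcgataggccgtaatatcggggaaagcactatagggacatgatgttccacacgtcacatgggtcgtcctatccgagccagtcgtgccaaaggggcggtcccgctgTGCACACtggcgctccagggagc
Mt2: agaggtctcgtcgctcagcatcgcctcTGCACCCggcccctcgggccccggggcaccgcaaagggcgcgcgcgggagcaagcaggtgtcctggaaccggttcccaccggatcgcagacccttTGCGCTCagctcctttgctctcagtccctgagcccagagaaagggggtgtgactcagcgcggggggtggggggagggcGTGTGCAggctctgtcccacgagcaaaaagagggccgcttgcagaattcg
The run of Mt1 holds 1 match and that of Mt2 holds 3. In windows that also take the 50 bases after the start, Mt1 has 3 matches, Mt2 has 4 and Slc30a1, whose level did not pass the threshold, has 2. The core is short, and 36.3% of the 9766 windows of tested genes hold at least 1 match.

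Among the zinc transporters, the importer gene Slc39a10 alone made a large change. Slc39a10 (ENSMUSG00000025986.6, mm10 chromosome 1, 46807544 to 46892852, minus strand) encodes ZIP10. It stood at 2.78, 2.31 and 2.78 TPM in siControl (128, 98 and 105 reads) and at 22 and 20.3 TPM with DTPA (981 and 938 reads). Both DTPA libraries were far above its low control level, and the ratio of the means was 8.05 (2.61, SE 0.12, adjusted p = 3.7e-07). The other 8 tested ZIP genes were not called, except 1 with median-of-ratios scaling or quantile normalization. Slc39a8, chosen after its values were seen, a carrier of zinc, manganese and other divalent metals, stood at 342, 339.7 and 335 TPM against 333 and 327 TPM (−0.04). Of 6 tested ZnT genes, which include Slc30a1, 1 rose (2 in the 5 alternatives that called Slc30a1) and 1 fell. Slc30a10, a manganese exporter, rose from 95.6, 96.4 and 97.2 TPM to 129.8 and 123 TPM (0.39, adjusted p = 8.4e-05). Slc30a9, a mitochondrial zinc transporter, fell slightly (−0.19, adjusted p = 0.01), a call that was lost without DTPA replicate 2.

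Genes of other metals moved little. Of 17 tested genes of iron uptake, storage and sensing, 3 rose (5 with voom) and 1 fell. The heme exporter gene Flvcr1 rose from 53.6, 49.9 and 52.5 TPM to 69.3 and 66.8 TPM (0.38). The iron sensor Aco1 and the ferritin receptor Ncoa4 rose by less (0.22 and 0.20), and the iron chaperone Pcbp1 fell (−0.18). The transferrin receptor Tfrc stood at 881, 820.5 and 833 TPM against 833 and 809 TPM (−0.04, adjusted p = 0.41); Tfrc, Hba-a1 and Hbb-bt are given after their values were seen. Of 11 copper genes 0 rose (2 with quantile normalization and 3 with voom) and 1 fell, the cytochrome oxidase assembly gene Sco1 (−0.34), which lost its call in 6 of 14 alternatives.

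**Figure D2:**
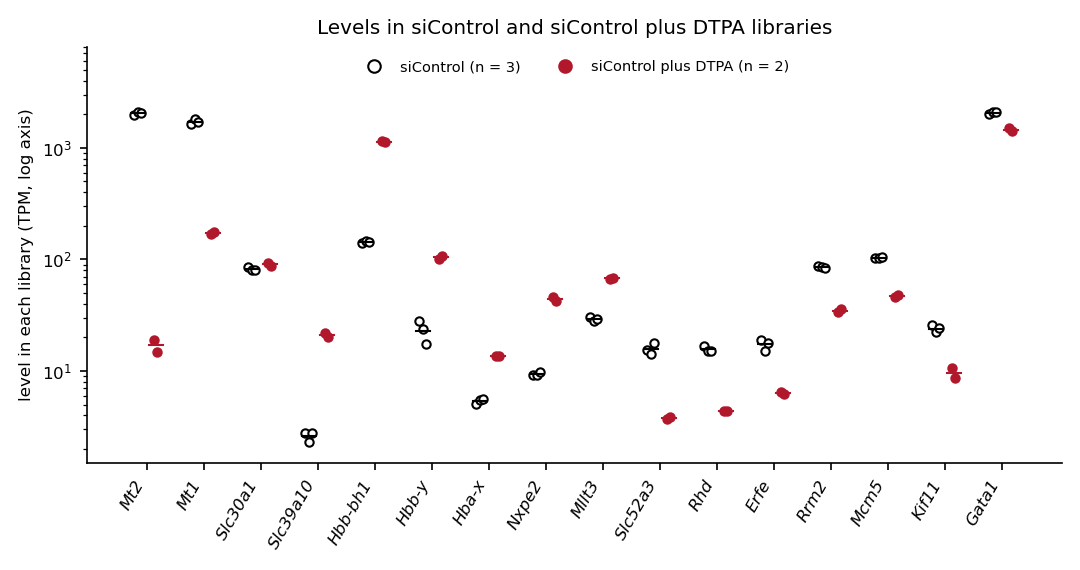
The TPM level (log axis) of 16 genes in each of the 3 siControl libraries (open circles) and the 2 siControl plus DTPA libraries (red), with a bar at each group mean. Mt1 and Mt2 are low with DTPA, Slc39a10, Hbb-bh1, Hbb-y, Hba-x, Nxpe2 and Mllt3 are high, and the groups overlap in none of the called genes shown.

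The embryonic globins formed the next group. The beta globin cluster runs from the embryonic Hbb-y and Hbb-bh1 to the adult Hbb-bs and Hbb-bt. All 5 tested members were above 0 in the difference, with 3 called. When only the compared groups were fitted, 4 passed the level for testing and 3 were called. The remaining member was tested only because its mean was taken over further groups as well. Hbb-bh1 stood at 139.6, 145 and 142 TPM in siControl and 1143 and 1134 TPM with DTPA, a ratio of means of 7.99 (2.99, SE 0.04, adjusted p = 3e-11). Both DTPA libraries were far above the tightly grouped controls. Hbb-y stood at 28, 23.6 and 17.3 TPM against 101 and 108 TPM (2.16, SE 0.15, adjusted p = 4.6e-06). The embryonic alpha-like gene Hba-x rose as well, from 5.05, 5.52 and 5.67 TPM to 13.6 and 13.7 TPM (1.19, adjusted p = 0.00027).

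The adult globins, which held most of the globin transcripts, did not share that size of change. Hbb-bs stood at 20180, 22921 and 21491 TPM against 27830 and 30822 TPM (0.45, adjusted p = 0.00067), a rise that lost its call with no filter and with quantile normalization. Its neighbour Hbb-bt stood at 3312, 3318 and 2043 TPM against 2137 and 5661 TPM, with overlapping groups and no call (0.30). Hba-a1 was at 10501, 12471 and 11998 TPM against 11761 and 11906 TPM, with overlapping groups (0.03). Reads of these near-identical copies may be divided unevenly between them. Summed over 10 globin genes, the share of TPM was 3.91% ± 0.35 (SD, n = 3) in siControl and 4.90% ± 0.43 (SD, n = 2) with DTPA.

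Of 22 tested repressors of embryonic globin genes 1 rose and 7 fell, beside 9.98% and 18.8% of all genes, and 3 fell without DTPA replicate 2. Bcl11a, which silences embryonic and fetal globins, stood at 5.76, 5.75 and 5.78 TPM against 4.41 and 4.12 TPM (−0.36, adjusted p = 0.0073), and Nr2c1, an orphan receptor of the complex that represses embryonic globins, had −0.37. Both of these lost their call without DTPA replicate 2. Dnmt1, the maintenance DNA methyltransferase, fell from 69.4, 66 and 69.3 TPM to 56.4 and 53.6 TPM (−0.31, adjusted p = 0.00035). Its partner Uhrf1, which brings it to newly copied DNA, fell further, from 30.2, 29.2 and 29 TPM to 10.6 and 10.2 TPM (−1.41, SE 0.08, adjusted p = 1.9e-06). The 20 listed germline genes that DNA methylation silences were all below the level for testing.

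The largest body of strong changes was in cell division. Dividing cells copy their DNA in S phase under the E2F factors and build the spindle in G2 and mitosis under the DREAM and FOXM1 complexes, and erythroid precursors pass through their last divisions while they mature. In 11 lists of replication, repair and division genes, 260 genes were tested, and 202 fell and 5 rose, beside 18.8% and 9.98% of all tested genes. Their median difference was −0.55, beside −0.04 for all genes. The same lists held 40 of the 78 genes that fell by at least 1 and 0 of the 31 that rose by as much.

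Genes of mitosis fell the most. Of 28 tested mitotic cyclins, kinases and ubiquitin ligase genes 26 fell (median −0.95), as did 24 of 25 spindle genes (−0.92), 13 of 15 mitotic kinesins (−0.91) and 27 of 30 kinetochore genes (−0.70). Birc5, the survivin subunit of the complex that corrects chromosome attachment, stood at 66.1, 64.3 and 67.8 TPM against 25.4 and 25.1 TPM (−1.35, SE 0.09, adjusted p = 4.8e-06). Aurkb, the kinase of the same complex, stood at 19.4, 21.5 and 20.1 TPM against 7.28 and 7.97 TPM (−1.31). Both fell to well under the lowest control library. Kif11, the motor that pushes spindle poles apart, stood at 25.7, 22.2 and 24.1 TPM against 10.6 and 8.69 TPM (−1.23, SE 0.10, adjusted p = 1.5e-05), and Kif20a, a motor of the spindle midzone, at 41, 38.5 and 40.8 TPM against 15.1 and 14.4 TPM (−1.38). Among the kinetochore genes that fell were Spc24 (−1.21) and Nuf2 (−1.07), subunits of the NDC80 complex, and the large kinetochore protein Cenpf (−1.18). Cdca3, a trigger of mitotic entry that is in none of the lists, fell from 63.5, 66.3 and 68.8 TPM to 23.8 and 26.7 TPM (−1.36).

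Genes of DNA copying fell by less. Of 50 tested genes of replication origins and forks 40 fell and 0 rose (median −0.51), as did 10 of 14 genes of nucleotide supply (−0.35), 14 of 18 of chromatin assembly (−0.46), 14 of 18 condensin, cohesin and topoisomerase genes (−0.46) and 16 of 26 recombination and Fanconi genes (−0.35). Mcm5, a subunit of the replicative helicase, stood at 104, 104 and 104 TPM against 46.5 and 47.8 TPM (−1.13, SE 0.10, adjusted p = 2.6e-05). The helicase subunits Mcm6 and Mcm3 and the origin factor Ticrr fell as well (−0.97, −0.97 and −1.12). Rrm2, the regulated subunit of ribonucleotide reductase, stood at 87.6, 85.1 and 83.4 TPM against 33.6 and 36.1 TPM (−1.27, SE 0.07, adjusted p = 1.1e-06), and its partner Rrm1 fell by less (−0.72). Top2a, which untangles chromosomes, stood at 157, 144 and 148 TPM against 74.1 and 74.6 TPM (−1.0).

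Of 19 tested genes of the E2F and retinoblastoma families, which control entry into S phase, 9 fell and 2 rose (1 without DTPA replicate 2). Those that fell most were E2f8 (−1.48), an E2F that represses, the activator E2f2 (−1.10), the MuvB partner Mybl2 (−1.26) and Foxm1 (−0.81). Mybl2 stood at 16, 16.1 and 17.1 TPM against 5.66 and 6.91 TPM, with no overlap. Of 17 G1 genes 9 fell and 2 rose (4 with voom): Cks1b, a CDK subunit, fell by most (−0.95), followed by cyclin E1, Ccne1 (229, 236 and 223 TPM against 160.5 and 147 TPM, −0.57). Among the falls were also Cdkn2c (−0.38), which inhibits CDK4 and CDK6, and cyclin D2, Ccnd2 (−0.39). The CDK inhibitor p21, Cdkn1a, rose from 162, 181 and 169 TPM to 202 and 197 TPM (0.23, adjusted p = 0.0026); it too was chosen after its values were seen.

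Stretches before the starts of division genes are shown because mitotic and S phase genes are known to be set by different short elements there. E2F sites (TTTCCCGC, TTTGGCGC or TTTCGCGC on either strand) mark S phase genes. The CHR element (TTTGAA or TTTAAA) and the CCAAT box (CCAAT), again on either strand, mark genes of G2 and mitosis. The first 2 runs, with E2F sites in capitals, are the 160 bases before the starts of Mcm5 (chr8:75109349-75109508, plus strand) and Mcm6 (chr1:128359706-128359865, minus strand) in RefSeq, build GRCm38.p6. Where a capital run is longer than 8 bases, 2 matches on opposite strands overlap in it.
Mcm5: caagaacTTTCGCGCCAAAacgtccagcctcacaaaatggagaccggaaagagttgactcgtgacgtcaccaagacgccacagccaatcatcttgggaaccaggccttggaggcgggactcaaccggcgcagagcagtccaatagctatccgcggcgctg
Mcm6: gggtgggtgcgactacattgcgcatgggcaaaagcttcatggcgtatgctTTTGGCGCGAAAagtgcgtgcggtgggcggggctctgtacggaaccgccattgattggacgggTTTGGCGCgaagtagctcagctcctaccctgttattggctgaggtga
The next 4 are the 100 bases before the starts of Kif11 (chr19:37376282-37376381, plus strand), Depdc1a (chr3:159495333-159495432, plus strand), Cdk1 (chr10:69352913-69353012, minus strand) and Ube2c (chr2:164769829-164769928, plus strand), with CHR elements and CCAAT boxes in capitals. Cdk1, the kinase of mitotic entry, and Depdc1a, a spindle protein, were chosen for display after their values were seen (−1.10 and −1.14).
Kif11: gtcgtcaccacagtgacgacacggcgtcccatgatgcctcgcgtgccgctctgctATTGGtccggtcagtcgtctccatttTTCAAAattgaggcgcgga
Depdc1a: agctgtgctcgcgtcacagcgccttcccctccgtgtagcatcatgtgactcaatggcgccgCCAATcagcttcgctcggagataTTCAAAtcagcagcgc
Cdk1: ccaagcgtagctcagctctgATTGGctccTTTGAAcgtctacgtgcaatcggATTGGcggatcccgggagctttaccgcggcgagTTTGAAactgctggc
Ube2c: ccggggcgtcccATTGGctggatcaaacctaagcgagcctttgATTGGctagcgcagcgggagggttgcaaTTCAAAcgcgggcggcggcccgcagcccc
Over windows from 250 bases before to 50 after the start, a CHR element was in 65% of the 60 windows of genes that fell by at least 1, beside 19.4% of the 9766 windows of all tested genes. The windows covered 53 of those 78 genes and 7733 of the 11379 tested ones. A CCAAT box was in 73.3% beside 39.5%, and both were in 55% beside 8%. In the spindle list 84% of the windows held a CHR element. The E2F words were in 32% of the windows of the replication list, beside 3.93% of all. Several windows can belong to 1 gene, no window was tested, and a match is a description of the letters.

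Some histone transcripts went the other way. The messages of replication-dependent histone genes normally end in a stem-loop rather than a poly(A) tail. In these poly(A) libraries 23 of 70 members were above the level for testing, taken over all 11 libraries. Of them 6 rose, 0 fell and 17 were not called (median 0.19), beside 9.98% that rose and 18.8% that fell of all genes. When only the compared groups were fitted, 24 were tested, 5 rose and 0 fell, with a median of −0.0006. H1f2, a linker histone, stood at 105, 106 and 102 TPM against 198 and 175 TPM (0.83, SE 0.05, adjusted p = 3.5e-06). Hist1h2al, an H2A gene that the annotation calls a processed pseudogene, stood at 7.76, 8.90 and 8.56 TPM against 24 and 24 TPM (1.41), and H2aw rose as well (0.81). Both DTPA libraries were above all controls in each. With voom only 2 of these genes could be tested and 1 rose, and without DTPA replicate 1 there was 1 fall. The replication-independent variant H2az1 fell, from 772, 758 and 747 TPM to 516 and 504 TPM (−0.57), and 3 of 7 variant histone genes fell (1 with voom) with 0 rising. Near-identical histone copies can share reads.

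**Figure D3:**
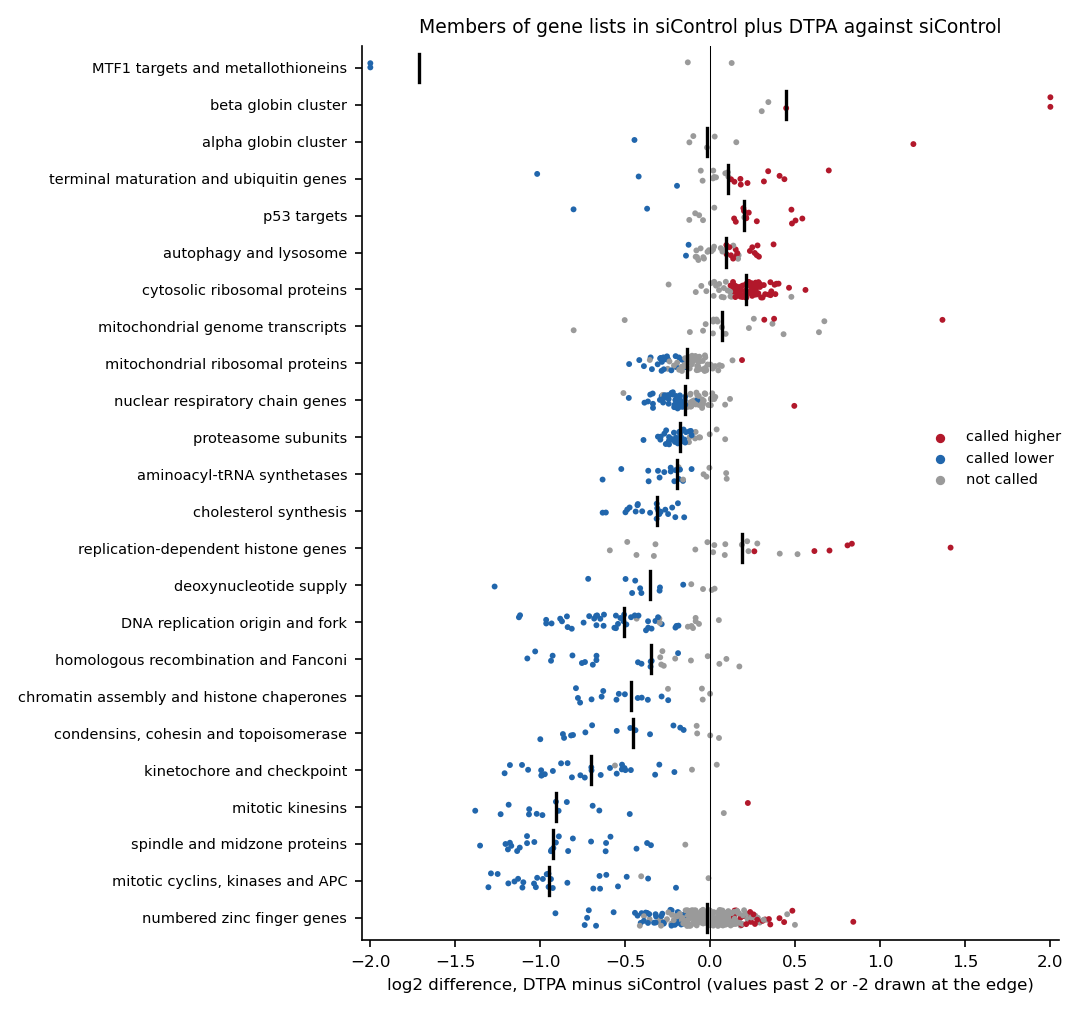
The log2 difference, DTPA minus siControl, of each tested member of 24 gene lists, coloured red where called higher, blue where called lower and grey otherwise, with a black bar at the list's median and values past 2 or −2 drawn at the edge. Mitotic lists lie near −0.9, replication lists near −0.5, sterol genes near −0.3, and cytosolic ribosomal proteins near 0.2.

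The genes of cytosolic ribosomal proteins rose together. Of 86 tested genes of cytosolic ribosomal proteins, 67 rose and 0 fell (median 0.21, beside 9.98%, 18.8% and −0.04 for all genes), and 56 to 75 rose and 0 fell in every alternative. Of all 118 tested genes at 1000 TPM or more, 45.8% rose and 14.4% fell. The share of cytosolic ribosomal protein genes in TPM was 8.35% ± 0.16 (SD, n = 3) in siControl and 9.60% ± 0.05 (SD, n = 2) with DTPA. Rps6, the ribosomal protein phosphorylated downstream of mTOR, stood at 1471, 1404 and 1441 TPM against 1870.2 and 1897 TPM (0.39, SE 0.03, adjusted p = 6.9e-06). The abundant Rplp1, of the ribosomal stalk, stood at 7431, 7229 and 7477 TPM against 8844 and 8685 TPM (0.25). Of 52 translation factors 10 rose (16 with voom) and 16 fell. Among those that rose were the elongation factors Eef1a1 (0.23), Eef1b2 (0.33) and Eef2 (0.19) and the poly(A)-binding protein Pabpc1 (0.29); the call of Eef1a1 was lost with quantile normalization.

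In other lists of protein synthesis and turnover and of the respiratory chain, most called genes fell. Of 77 mitochondrial ribosomal protein genes 25 fell and 1 rose (median −0.14; 14 fell without DTPA replicate 2), and of 76 nuclear genes of the respiratory chain 40 fell and 1 rose (−0.15). Ndufa5, a complex I subunit, stood at 117, 105 and 109 TPM against 76.4 and 81.8 TPM (−0.48). Of 22 aminoacyl-tRNA synthetase genes 15 fell and 0 rose (−0.20), led by the valine enzyme Vars (92.2, 94.8 and 98 TPM against 63.7 and 58.1 TPM, −0.63) and the alanine enzyme Aars (−0.52). Of 39 proteasome genes 30 fell and 0 rose (−0.18), with Psmd9, an assembly chaperone, at −0.39. Of 34 genes of ribosome assembly 15 fell and 0 rose (9 without DTPA replicate 2), among them the rRNA gene activator Ubtf (−0.53) and the rRNA processing factor Ftsj3 (−0.50). These changes were small in every member: the largest fall in these 5 lists was −0.63.

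Of 21 tested transcripts of the mitochondrial genome 3 rose (6 with voom) and 0 fell (1 without DTPA replicate 1). The rRNA mt-Rnr1 stood at 1714, 1609 and 1584 TPM against 2078 and 2163 TPM (0.37) and mt-Rnr2 at 1107, 1031 and 1033 TPM against 1276 and 1359 TPM (0.32). In both, the groups did not overlap. The other call was the transfer RNA mt-Tt, counted with 7, 9 and 6 reads in siControl and 17 and 26 with DTPA, which lost its call in 5 of 14 alternatives. Mitochondrial rRNA was 0.269% of TPM in siControl and 0.344% with DTPA, and its part in the other results was not tested.

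Genes that build sterols fell without exception among those tested. All 22 tested genes of cholesterol synthesis fell, with a median of −0.32 and a range from −0.63 to −0.15. Sqle, squalene epoxidase, stood at 154, 162 and 158 TPM against 113 and 109 TPM (−0.50, SE 0.04, adjusted p = 1.1e-05). Fdps, which makes farnesyl diphosphate, stood at 13.4, 14.5 and 13.4 TPM against 9.23 and 8.11 TPM (−0.61). Their controls and DTPA libraries did not overlap. Tm7sf2, a sterol reductase, fell alike (−0.63), and so did the sterol enzyme Hsd17b7 (−0.49). Fatty acid genes were mixed, with 4 that rose and 8 that fell of 18 (2 rose without DTPA replicate 1, and 5 fell without DTPA replicate 2). The desaturase Fads2 fell from 249, 252 and 254 TPM to 178 and 172 TPM (−0.52), and Acss2, which makes acetyl-CoA from acetate, rose from 32.2, 32.7 and 31.7 TPM to 48.2 and 47.8 TPM (0.56).

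Genes of amino acid supply fell in part, beside 9.98% that rose and 18.8% that fell of all tested genes. Of 17 tested targets of ATF4, the factor of the amino acid response, 11 fell and 0 rose (median −0.18; 7 fell without DTPA replicate 2). The glutamine carrier Slc1a5 stood at 30.3, 30.04 and 31.9 TPM against 17.5 and 17.6 TPM (−0.78, SE 0.07, adjusted p = 2e-05) and asparagine synthetase, Asns, at 374, 361 and 348 TPM against 275 and 284 TPM (−0.37). Of 17 tested one-carbon genes 6 fell and 0 rose, among them the serine hydroxymethyltransferases Shmt2 (−0.60) and Shmt1 (−0.59). Of 19 genes of purine and pyrimidine synthesis 5 fell (2 without DTPA replicate 2) and 0 rose. Of 23 genes of glucose use 5 rose (1 without DTPA replicate 1) and 10 fell. Tpi1, triose phosphate isomerase, stood at 462, 471 and 478 TPM against 323 and 314 TPM (−0.56). The lactate carrier Slc16a1 stood at 91.7, 91 and 89.4 TPM against 57.7 and 65.2 TPM (−0.56). Pdk1, a kinase that inhibits pyruvate dehydrogenase, stood at 4.99, 4.12 and 4.44 TPM against 2.09 and 2.16 TPM (−0.82).

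Stress genes that were called mostly fell, as did called genes at large, with 9.98% of all tested genes rising and 18.8% falling. Of 21 heat shock genes 12 fell and 0 rose, led by the co-chaperone Stip1 (260, 259 and 245 TPM against 186 and 178 TPM, −0.48). Of 21 chaperones of the endoplasmic reticulum 7 fell and 1 rose (2 with voom). Of 21 targets of the oxidant sensor NRF2 8 fell and 1 rose (4 with quantile normalization), and the quinone reductase Nqo1 fell from 79.7, 73.9 and 74.3 TPM to 38.6 and 40.6 TPM (−0.92, SE 0.08, adjusted p = 1.6e-05). Of 24 genes of peroxide and superoxide defence 9 fell and 2 rose (4 with voom). Selenow, an abundant selenoprotein outside the lists, stood at 4106, 4229.7 and 3997 TPM against 2706 and 2659.7 TPM (−0.62, adjusted p = 4.3e-07). Txnip, the inhibitor of thioredoxin, rose from 153, 155 and 154 TPM to 207 and 199 TPM (0.39). Of 13 interferon genes 1 fell and 0 rose (1 with voom).

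Targets of p53 and genes of autophagy rose by small amounts. Of 20 tested p53 targets 12 rose and 2 fell (median 0.20). Eda2r, a death receptor, stood at 7.92, 9.05 and 7.75 TPM against 11.7 and 13.1 TPM (0.54), Phlda3, an inhibitor of AKT, at 54.9, 69 and 66.4 TPM against 91.7 and 87.8 TPM (0.50), and Zmat3, an RNA-binding target of p53, rose alike (0.48). The repair factor Ddb2 fell, from 7.26, 7.46 and 6.43 TPM to 4.02 and 3.21 TPM (−0.80), and the other fall was Ckap2, a microtubule gene. The BH3 gene Bbc3 (PUMA), also a p53 target, rose from 106, 122 and 113 TPM to 161 and 156 TPM (0.48), while the effector Bak1 fell (−0.39); over 20 genes of the BCL2 family and caspases 4 rose (7 with quantile normalization) and 4 fell (2 without DTPA replicate 2). Of 35 genes of autophagy and the lysosome 15 rose and 2 fell (median 0.09; 9 rose without DTPA replicate 1), among them Atg14 (0.37), Sqstm1 (0.29) and cathepsin D, Ctsd (0.28).

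Lists of red cell genes held members called in both directions, as did the tested genes at large. Of 14 tested erythroid identity markers 2 rose (4 with voom), 3 fell and 9 were not called (median −0.02). Among all genes 9.98% rose and 18.8% fell. Gata1 stood at 2005, 2101 and 2095 TPM against 1512 and 1404 TPM (−0.50, SE 0.04, adjusted p = 1.6e-05); these reads may come from the introduced form. Gfi1b, a repressor that works with it, rose from 427, 445 and 433 TPM to 666 and 632 TPM (0.58), and Spi1 (PU.1), a myeloid factor that opposes GATA1, rose from 12.5, 12.7 and 14.1 TPM to 19.9 and 19.09 TPM (0.54). Gata2 stood at 37.6, 39.9 and 41.6 TPM against 40.1 and 38.7 TPM (−0.01, adjusted p = 0.9) and Klf1, the master factor of adult red cell genes, at 601, 697 and 689.8 TPM against 691 and 693 TPM (0.07); neither was called, and both were chosen after their values were seen. Over 20 GATA factors and partners 6 rose (10 with voom) and 4 fell (2 without DTPA replicate 2).

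In the membrane, genes of band 3 and its skeleton went both ways. Slc4a1, the anion exchanger band 3, stood at 442, 452 and 442 TPM against 241 and 226 TPM (−0.93, SE 0.04, adjusted p = 3.7e-07). Dematin, Dmtn, stood at 45.6, 49.2 and 49.2 TPM against 23.3 and 23.4 TPM (−1.01) and the actin capper Tmod1 fell with them (−0.86). The adducin gene Add2 rose (0.41), and the spectrin gene Sptb (−0.04) was not called and was chosen after its values were seen. Over 14 tested genes 3 rose (5 with voom) and 3 fell (median −0.06), beside 9.98% that rose and 18.8% that fell of all genes. Blood group and channel genes also went both ways, with 5 that rose (3 without DTPA replicate 2) and 7 that fell of 21. Rhd, which carries the Rh antigen, stood at 16.9, 15.1 and 15 TPM against 4.34 and 4.36 TPM (−1.64, SE 0.09, adjusted p = 1.5e-06). The Kell antigen gene Kel went up from 20.1, 17.6 and 16.6 TPM to 34 and 33.1 TPM (0.86). The calcium-gated potassium channel Kcnn4 and the nucleoside carrier Slc29a1 fell (−0.96 and −0.73).

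The heme pathway changed at single steps, with 4 that rose (2 without DTPA replicate 1 or 2) and 7 that fell of 19. Of all tested genes 9.98% rose and 18.8% fell, and of those at 100 to 1000 TPM 21.01% and 32.25%. Alas2, which sets the pace of erythroid heme synthesis, rose from 1992, 2075 and 2042 TPM to 2495 and 2449.9 TPM (0.28). Alad, the next enzyme and one that needs zinc, fell from 515, 514 and 514 TPM to 317 and 313 TPM (−0.70, SE 0.04, adjusted p = 1.4e-06). Uros rose from 82, 80.4 and 78 TPM to 112 and 109 TPM (0.46), and Slc25a39, a mitochondrial glutathione carrier, fell from 317, 335 and 341 TPM to 239 and 237 TPM (−0.47). Of 24 genes of erythropoietin and KIT signalling 5 rose (3 when only the compared groups were fitted) and 7 fell. Erfe, the hormone by which erythroblasts lower hepcidin, stood at 19, 15.2 and 18 TPM against 6.51 and 6.25 TPM (−1.31, SE 0.16, adjusted p = 0.00016). Kit rose from 15.2, 13.8 and 14.5 TPM to 20.8 and 20.49 TPM (0.48), and the erythropoietin receptor Epor fell from 147, 157 and 148 TPM to 128 and 118 TPM (−0.29). Genes of terminal maturation rose more often than they fell, 10 against 3 of 22. Ypel4 stood at 40.8, 38 and 37.4 TPM against 66.8 and 60 TPM (0.70) and the ubiquitin ligase Ube2o, which clears proteins from reticulocytes, at 107, 113 and 115 TPM against 159 and 145 TPM (0.44); the mitotic ubiquitin gene Ube2c in the same list fell (−1.02).

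Of 30 tested zinc-dependent enzyme genes 7 fell and 1 rose (median −0.07), beside 18.8% and 9.98% of all genes. In 6 of the alternatives 4 fell, and with median-of-ratios scaling, quantile normalization or voom 3 rose. Besides Alad, carbonic anhydrase 13, Car13, fell (−0.51). Carbonic anhydrase 1, Car1, stood at 67.1, 60 and 66.7 TPM against 96.8 and 84.8 TPM (0.48), a rise that lost its call without DTPA replicate 1, and the abundant Car2 fell slightly, from 4317, 4291 and 4163 TPM to 3814 and 3881 TPM (−0.15). Of 270 tested numbered zinc finger genes, most of which encode DNA-binding repressors, 22 rose and 37 fell, near the background of 9.98% and 18.8% or below it (median −0.02). The balance of these calls turned with the scaling: 35 rose and 28 fell with median-of-ratios scaling and 37 and 21 with quantile normalization. With voom 45 rose and 33 fell of 268. The list's median was −0.039 without DTPA replicate 1 and −0.0195 without DTPA replicate 2. Zfp629 had the largest fall, from 10.2, 9.36 and 10.4 TPM to 4.91 and 4.78 TPM (−0.91), and Zfp27 the largest rise, from 8.81, 8.23 and 7.64 TPM to 15.8 and 15.2 TPM (0.84). Zfp715 fell from 38.1, 34.5 and 34.3 TPM to 21.3 and 20.9 TPM (−0.72).

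Among the remaining strong changes were genes of no list. Nxpe2 stood at 9.26, 9.29 and 9.87 TPM against 46.1 and 42.7 TPM (2.11, SE 0.06, adjusted p = 3.4e-08). The long noncoding RNA gene Gm6093 stood at 12.1, 11.6 and 11.4 TPM against 38.4 and 35.9 TPM (1.58). Cpz, a zinc carboxypeptidase, stood at 17.7, 18.6 and 18.1 TPM against 47.5 and 45.3 TPM (1.31). In these 3 genes both DTPA libraries stood far above every control. Alpk3, a kinase known from heart muscle and a member of the cytoskeleton list, rose from 3.39, 2.77 and 2.88 TPM to 9.67 and 9.94 TPM (1.43). On the other side, the riboflavin carrier Slc52a3 stood at 15.4, 14.3 and 17.9 TPM against 3.73 and 3.84 TPM (−1.81, SE 0.10, adjusted p = 1.1e-06), Tmco4 at 12.5, 14.8 and 13.3 TPM against 4.64 and 4.34 TPM (−1.40) and cardiac troponin I, Tnni3, at 8.54, 7.04 and 7.43 TPM against 1.45 and 2.42 TPM (−1.58). They were left at 23.8%, 33.2% and 25.2% of their control means. Further genes were chosen after their values were seen: Mllt3, a reader of acylated histones, rose from 30.5, 27.9 and 29.3 TPM to 67.4 and 68.1 TPM (1.19). The amino acid carrier Slc43a2, the mitochondrial protein gene Mgarp, the lysosomal gene Laptm5 and the blood cell signalling gene Vav1 also rose (1.18, 1.11, 1.03 and 0.97). The liver lipid regulator Creb3l3, the blood cell nuclear protein Hemgn and Gadd45b, a stress gene, fell (−1.14, −1.35 and −1.71).

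Small RNA genes and pseudogenes stood among the extremes, and most of those named below rest on few reads. Of the 31 genes that rose by at least 1, 16 were protein coding and 15 were not. Protein coding genes made up 65 of the 78 that fell by as much and 8992 of all 11379 tested genes. The 15 include Gm6093, which had 240 to 312 reads in siControl and 928 to 958 with DTPA. Gm25640, annotated as a miRNA, had 5 and 7 reads with DTPA and was at 0 in all 3 siControl libraries, and Gm27402 had 6 and 3 reads with DTPA and 0 in siControl. The pseudogene Hbb-bh0, in the beta globin cluster, had 1, 0 and 0 reads in siControl and 6 and 4 with DTPA. The small nucleolar RNA gene Snord42b had 0, 2 and 0 against 6 and 3 reads, the rRNA gene n-R5s40 7, 3 and 1 against 11 and 9 and the miRNA gene Gm26384 1, 2 and 1 against 5 and 4. Among the falls, Mir6979 had 4, 1 and 2 reads in siControl and 0 in both DTPA libraries, and the small nucleolar RNA gene Gm26202 had 7, 6 and 3 against 2 and 1. Mir144, the erythroid microRNA gene, counted from its precursor, had more reads (50, 73 and 54 against 129 and 130) and rose from 99.6, 159 and 132 TPM to 267 and 261 TPM (1.04), also chosen after its values were seen.

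The libraries looked erythroid in both groups. The summed level of 14 erythroid markers was 41397 to 48225 TPM in siControl and 50317 to 56312 with DTPA. Much of that sum was the globin gene Hbb-bs. Over the 14 markers the median difference was −0.02, with 8 below 0 and 6 above 0. The summed level of 17 megakaryocyte markers was 106 to 117 TPM against 133 to 143, that of 16 mast cell and basophil markers 42.3 to 46.3 against 45.2 to 46.4, that of 19 myeloid markers 15.9 to 16.5 against 22.5 to 23.2 and that of 18 lymphoid markers 0.296 to 1.08 against 0.686 to 0.914. Most of the myeloid sum was Spi1, and 12 of its 19 genes were at 0 in all 5 libraries. Of the tested megakaryocyte markers 3 of 5 rose: Itgb3, the platelet fibrinogen receptor subunit, stood at 6.19, 5.58 and 6.12 TPM against 10.3 and 11.1 TPM (0.75), and Tubb1 and Gp1ba had 0.23 and 0.33. Of 12 progenitor genes 3 rose (7 with voom) and 1 fell, of 11 immediate early genes 4 rose and 1 fell, and of 27 genes of the cytoskeleton 7 rose and 9 fell. The part of other cell types in the results was not tested.

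Low zinc and the knockdown of ZIP10 were compared directly, to show where DTPA stands apart. The siZIP10 group (n = 3) received an siRNA against Slc39a10 and no chelator and was otherwise treated as siControl. Between siControl plus DTPA and siZIP10, 957 genes were higher with DTPA (8.41%) and 1414 were lower (12.4%) by limma's test. The numbers were 434 and 935 without DTPA replicate 1 and 570 and 690 without DTPA replicate 2, and the share of higher calls was 40.4%, against 51.1% with voom. The metallothioneins led: the difference, DTPA minus siZIP10, was −7.07 for Mt2 (adjusted p = 1.3e-10) and −3.52 for Mt1. It was 3.77 for Slc39a10, the target of the siRNA. The exporter Slc30a1 was lower with DTPA than with siZIP10 (−0.34, adjusted p = 0.00057), at 90.1 TPM against 115. The embryonic globins stood apart too, with Hbb-bh1 at 1138 TPM with DTPA and 139 with siZIP10 (3.03), Hba-x at 13.7 and 2.52 (2.07) and Hbb-y at 104 and 30.03 (1.76).

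**Figure D4:**
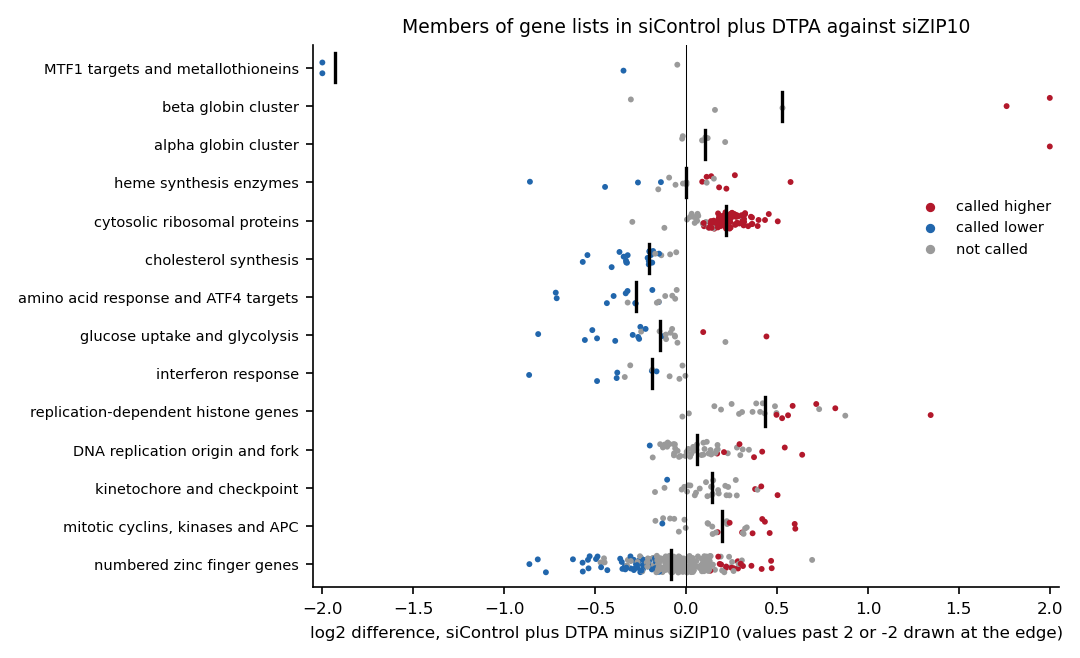
The log2 difference, siControl plus DTPA minus siZIP10, of each tested member of 14 gene lists, coloured by its call in that comparison (red higher, blue lower with DTPA, grey not called), with a black bar at the list's median and values past 2 or −2 drawn at the edge. Cytosolic ribosomal protein genes lie to the right at a median of 0.22, cholesterol genes to the left at −0.21, and division lists spread around 0 to 0.2.

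Whole lists differed as well. Of the 86 cytosolic ribosomal protein genes 70 were higher with DTPA than with siZIP10 and 0 were lower (median 0.22), and 53 to 76 were higher and 0 lower in every alternative. Of 22 cholesterol genes 18 were lower with DTPA and 0 higher (median −0.21; 11 without DTPA replicate 2). Of 17 ATF4 targets 10 were lower and 0 higher (−0.28), and of 23 genes of glucose use 11 were lower and 2 higher (−0.15). Of 13 interferon genes 6 were lower with DTPA (2 without DTPA replicate 2) and 0 higher. Slc1a5 was at 17.5 TPM with DTPA and 29.4 with siZIP10 (−0.71), and Tpi1 at 318 and 448 (−0.49). Of the 260 division genes, 52 were higher and 11 lower with DTPA (median 0.10). The median against siControl, which both comparisons share, was −0.55 with DTPA and −0.66 with siZIP10. Single genes lower with DTPA than with siZIP10 were Creb3l3 (−1.61), Tmco4 (−1.57), Fgfbp3 (−1.42) and Selenow (−0.73), and Nxpe2 (1.88) and Slc43a2 (1.34) were higher; Fgfbp3 was chosen after its values were seen.

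The same chelator was also given to knockdown cells, which provides separate libraries for each side of the comparison (siZIP10 plus DTPA against siZIP10, 3 and 3). There 2623 genes (23.1%) rose and 4248 (37.3%) fell. Of the 1136 genes that rose with low zinc in control cells, 884 rose there too (77.8%, which is 33.7% of those that rose there) and 83 fell. Of the 2136 that fell, 1863 fell there (87.2%, 43.9% of those that fell there) and 43 rose. Mt2 and Mt1 differed by −6.72 and −2.89 in knockdown cells, and Slc39a10 by 1.91. The test of the difference between the DTPA effects called 3687 genes (32.4%), 1369 above 0 (12%) and 2318 below (20.4%). For Hbb-bh1 the effect was larger by 2.29 with the knockdown (adjusted p = 2.3e-09), and for Nxpe2 the effects of 2.11 and 1.92 did not differ past the threshold (adjusted p = 0.12). Of the 260 division genes, that test of the difference called 126 below 0 and 18 above 0. The median change of the division genes with DTPA was −0.86 in knockdown cells.

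**Figure D5:**
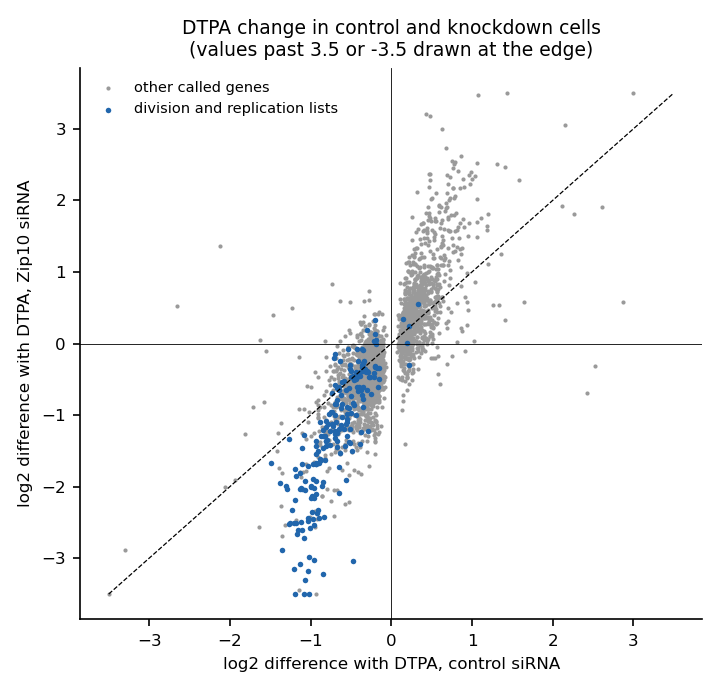
Each point is 1 of the 3272 genes called with low zinc in control cells, placed by its log2 difference with DTPA in control siRNA cells (x axis) and in Zip10 siRNA cells (y axis), from separate libraries; blue points are genes of the 11 division and replication lists and the dashed line marks equal changes. Most points lie in the quadrants of equal sign, and many division genes lie below the dashed line.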

How the data were processed

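Gene expression was measured by RNA-seq, and the values used were the TPM deposited by the authors, 1 table per library. The mouse build was mm10 and the tools were HISAT2 2.1.0, Trimmomatic 0.33, featureCounts, edgeR and FastQC, per the submitters' processing notes. For the annotation and the strand setting of the counting, nothing is given in the sources used here, and reads of overlapping, antisense or near-identical genes may be divided differently. The members and gene lists were chosen with earlier results of these data known. The library labelled siControl plus DTPA replicate 3 repeated siZIP10 replicate 1 and was left out, which left 11 of 12 libraries. Of 55487 listed genes, 53243 matched GENCODE mouse release 21 for biotype and position.

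Genes with a mean of 1 TPM or more were fitted as log2(TPM + 1) of the deposited values with limma 3.58.1 (R 4.3.3, trend on) over all 4 groups, with 7 residual degrees of freedom, Benjamini-Hochberg adjustment over 11379 genes and a threshold of 0.05. The groups' spread is thus shared. p-values measure the spread between these samples, and the main fit did not use the replicate numbers as pairs. Low TPM values were whole multiples of 1 read: 99.0% to 99.2% of values of up to 20 reads lay within 0.1 of a whole number, and these recovered reads gave the depth and a test with voom. The fit was tested on simulated data. Other steps used Python 3.11.15, pandas 2.3.3, numpy 2.4.6 and matplotlib 3.10.9.

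Named genes were the 15 largest rises and falls with 5 TPM or more in 1 group and no overlap, 4 per list, 10 for each further comparison, the 10 most abundant called in each direction, and Slc39a10, Mt1, Mt2, Slc30a1, Mtf1 and Gata1. Promoter sequences are RefSeq's, build GRCm38.p6, matched by symbol. A search of protein sequences for zinc fingers, part of the plan, was not run.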

Additional observations from a re-analysis of the deposited data

Results flagged for a closer look

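The effect of DTPA differed between control and knockdown cells in 3687 genes by limma's test of the difference itself. The 10 genes of largest difference among those also called with low zinc follow, as the effect in knockdown cells minus that in control cells on the log2 scale. Division genes had the more negative effect in knockdown cells: the difference was −2.9 for Nusap1, a microtubule-bundling protein of the spindle, −2.84 for Ube2c and −2.77 for Hmmr, a spindle protein. Slc4a1, band 3, differed by −2.77. Its mean was 445 TPM in siControl and 234 with DTPA, and 304 in siZIP10 and 22.5 with both. Car1 had 2.69 and went the other way, from 64.6 to 90.8 TPM in control cells and from 43.2 to 396 in knockdown cells. Gm47995 had 2.78. The small RNA genes Gm27402 (−2.84), Snord42b (−3.12), Mir6979 (3.18) and Mir7028 (3.48) rest on few reads, and their fitted differences depend on the pseudocount.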

How the results depend on the processing

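No direction reversed among 3361 values of 242 called named genes over 14 alternatives (scaling, filter, pseudocount, trend, groups fitted, voom, replicate block, each library left out); 201 genes were called in all of them and 144 values lost the call. The genes that rose with low zinc numbered 1136, but 1727 with quantile normalization and 1823 with voom on recovered reads; those above siZIP10 numbered 957, but 1514 with voom. The cause of these moves was not tested. When 1 library was left out, 2206 to 2882 genes were called with low zinc, of which 694 to 1036 rose and 1305 to 1872 fell. Against siZIP10 the range was 1260 to 1997, with 434 to 805 higher and 690 to 1284 lower; the test of the difference in DTPA effect called 2992 to 3517. Leaving out a DTPA library leaves 1 in that group, whose spread is then taken from the others. With a replicate block 3137, 2108 and 3641 genes were called in the 3 comparisons. The labels do not state whether replicate numbers mark pairs. Deviations of same-numbered siControl and DTPA libraries correlated at 0.00196 and 0.00463. With 2 DTPA libraries the deviations of each mirror those of the other, so that these values can show little about pairing. Over all groups the range was −0.0602 to 0.0607 for same-numbered libraries and −0.0856 to 0.0659 for the others. With 2 DTPA libraries, small changes and genes of few reads are the least certain.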
